A study of Drosophila melanogaster with 9 samples.

Results

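The genes described here encode subunits of the proteasome in Drosophila melanogaster. They were taken by symbol, as every gene whose name begins with Prosalpha, Prosbeta, Rpn or Rpt followed by a digit. The gene table used lists 48 such genes, of which 40 could be read from a probe set assigned to that gene alone, out of 11983 genes measured in the series. Each of the 40 rested on 1 probe set. They comprised 26 somatic subunits and 14 paralogues whose symbol carries a T or R after the subunit number, called testis-type here. Prosbeta1, Rpn9, Rpn10, Rpt1, Rpt6 and Rpt6R had no probe set in the annotation used, and Prosalpha1 and Prosalpha1R shared 1 probe set, which is described apart.

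RNA came from eye imaginal discs of larvae in the third instar and was hybridized to 9 Affymetrix Drosophila Genome 2.0 arrays, in 3 groups of 3 biological replicates. The rbf1 mutant discs had the genotype rbf1120a Gal4, where Rbf is the fly retinoblastoma family repressor of E2F targets. The PSC discs had the genotype w1118 psc and overexpressed Posterior sex combs, a subunit of Polycomb repressive complex 1. The control discs were w1118 Gal4. The labels name neither the Gal4 driver nor the promoter behind the PSC transgene, and the PSC genotype label has no Gal4. The series asks how each alteration affects transcripts of the disc. Each group is its own stock, so stock and alteration cannot be told apart. All values are log2 intensities, and a change is a difference of group means on that scale.

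The proteasome degrades proteins tagged with ubiquitin. Its core particle is a stack of rings, in which alpha subunits form the outer gates and beta subunits the inner chamber with the protease sites. The regulatory particle sits on the ends of the core: its base holds a ring of Rpt ATPases, which unfold substrates, and Rpn subunits, while its lid consists of further Rpn subunits and removes ubiquitin. In animals and yeast these genes are known to be expressed together at high level in most cells. Drosophila also has further gene copies of many subunits, several of which are known to be expressed in the male germ line and to replace their somatic counterparts there.

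The arrays carried the marks of their labels. Rbf was lower in rbf1 mutant than in control discs by limma, with a log2 fold change of -0.37 (SE 0.096, adjusted p = 0.0479), and Psc was higher in PSC than in control discs by 2.67 (SE 0.058, limma adjusted p = 3.12e-07). All 9 measured eye disc markers, among them eya, gl and elav, lay above the median gene. Of these, toy was called lower in rbf1 mutant than in control discs (-0.24, limma adjusted p = 0.0134), and dac (-0.49, adjusted p = 0.0299) and ato (-0.52, adjusted p = 0.00996) were called lower in rbf1 mutant than in PSC discs. Salivary glue genes varied within groups: the mean of 6 of them was 6.40, 11.75 and 7.11 on rbf1 arrays 1 to 3, 9.53, 10.08 and 12.24 on PSC arrays, and 6.52, 13.10 and 13.03 on control arrays. Of 6 haemocyte markers, PPO1 and PPO2 were called lower in rbf1 mutant than in control discs, and NimC1, PPO1 and PPO2 were called lower than in PSC discs. The mean of the 6 was 9.59 to 10.07 on rbf1 arrays, 10.33 to 10.76 on PSC arrays and 10.11 to 10.46 on control arrays. Of 5 neuroblast markers, mira was called higher and ase lower in PSC than in control discs, and ase was called higher and dpn lower in rbf1 mutant than in PSC discs, and none of 3 muscle or 2 fat body markers was called. For comparison, limma called 10.2% of all genes in rbf1 against control, 3.8% in PSC against control and 10.6% in rbf1 against PSC. What part these cell types have in the results was not tested.

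The 26 somatic subunit genes were bright and steady on every array. Their mean levels ran from 12.06 to 13.52, at the 93.49th to 99.07th percentile of the genes measured. Replicates of a group differed little: the pooled within-group SD of a somatic subunit had a median of 0.039, against 0.095 over all genes tested and 0.051 over the 781 genes at least as bright as the dimmest somatic subunit. Differences between probe sets in brightness partly reflect their probes, so the levels of different subunits are not ranked here.

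In rbf1 mutant discs no proteasome subunit gene passed the test against control. Of the 40 members, 0 were called by limma at an adjusted p of 0.05, where 10.2% of all genes tested and 7.3% of the 781 bright genes were called. An unadjusted p under 0.05 was found for 2 members, against 23.3% of all genes. The median somatic subunit stood at 0.038, or 1.03-fold, and the median of all genes at -0.0042. Of the 26, 23 stood above 0, against 48.6% of all genes. The somatic median ran from 0.019 (without rbf1 1, with 17 of 26 above 0) to 0.053 (without control 1) with each array left out, and was 0.022 without control 2. With arrays centred on their medians, which shifts all genes of this comparison alike, the somatic median was -0.0035 with 13 of 26 above 0, and the median of all genes was -0.046. Changes of single somatic subunits ran from -0.032 (Rpn1) to 0.089 (Rpn11), and the lowest adjusted p among them was 0.333. The 95% intervals of all 26 somatic subunits lay within -0.13 and 0.21, which is 0.915-fold to 1.16-fold. No somatic subunit had its rbf1 values entirely above or entirely below its control values, while 15.7% of all genes lay entirely above and 13.2% entirely below.

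Among the somatic genes of the core, the alpha subunit gene Prosalpha7 stood highest against control. It read 13.08, 13.06 and 12.93 in rbf1 mutant discs and 12.98, 12.93 and 12.90 in control discs, a log2 fold change of 0.087 (SE 0.053, limma adjusted p = 0.372). The value of rbf1 3 fell inside the control range. Prosalpha2, another gate subunit, read 13.31, 13.31 and 13.24 in rbf1 mutant discs and 13.29, 13.20 and 13.19 in control discs, so the groups overlapped. The 6 beta subunits had a median of 0.025 and lay between -0.0073 for Prosbeta3 and 0.055 for Prosbeta6. They include the genes of the protease subunits Prosbeta2, with trypsin-like activity, at 0.018, and Prosbeta5, with chymotrypsin-like activity, at 0.032.

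The somatic genes of the regulatory particle ran from -0.032 (Rpn1) to 0.089 (Rpn11), and those of the core from -0.0076 (Prosalpha6) to 0.087 (Prosalpha7). Rpn11, the lid enzyme that cuts ubiquitin chains off substrates, read 13.08, 13.10 and 13.01 in rbf1 mutant discs and 13.04, 12.93 and 12.94 in control discs (log2 fold change 0.089, SE 0.050, limma adjusted p = 0.333). The value of rbf1 3 lay below control 1. Rpn3, a lid subunit, read 12.42, 12.45 and 12.48 in rbf1 mutant discs and 12.49, 12.31 and 12.34 in control discs, with control 1 the highest of all 6. The base ATPase gene Rpt2 read 12.69, 12.64 and 12.67 in rbf1 mutant discs and 12.66, 12.58 and 12.59 in control discs, a change of 0.058, with rbf1 2 below control 1. The other 3 measured somatic ATPase genes stood between 0.0027 (Rpt3) and 0.034 (Rpt4).

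In PSC discs, too, 0 of the 40 members passed against control, where limma called 3.8% of all genes and 1.79% of the 781 bright ones. The somatic subunits leaned 1 way, however. All 26 stood above 0, against 53.1% of all genes tested and 51.6% of the 781 bright genes. Their median was 0.082, or 1.06-fold, with a range of 0.027 (Rpt5) to 0.14 (Rpt2), and the median of all genes was 0.0091. For 14 of the 26 the PSC values lay entirely above the control values, a pattern seen in 11.3% of all genes and in 13.6% of the 781 bright ones. The 26 genes share the same arrays and moved together from array to array. Counts of them, here and in the other comparisons, are therefore not separate observations. The mean over the 26 had a within-group SD of 0.030. At an unadjusted p under 0.05 there were 9 of the 40 members, 7 of them somatic and all of those higher, against 16.5% of all genes in either direction. The lowest adjusted p of a member was 0.151 (Rpt2). The 95% intervals of the somatic subunits lay within -0.070 and 0.24, so a rise of any of them above 1.18-fold lay outside its interval.

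The 5 somatic subunits furthest above control in PSC discs were genes of the ATPase ring, the alpha ring and the Rpn subunits, with none of the beta ring. The ATPase gene Rpt2 read 12.72, 12.73 and 12.80 in PSC discs and 12.66, 12.58 and 12.59 in control discs, a log2 fold change of 0.14 (SE 0.045). Rpt4, a further ATPase gene, read 12.97, 13.00 and 13.07 in PSC discs and 12.93, 12.82 and 12.91 in control discs (0.13, SE 0.048, limma adjusted p = 0.240). In both genes every PSC array lay above every control array.

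Prosalpha3, of the outer ring, read 13.17, 13.20 and 13.21 in PSC discs and 13.11, 13.04 and 13.06 in control discs (0.12, SE 0.042, limma adjusted p = 0.184). Rpn13, a ubiquitin receptor of the base, read 12.61, 12.65 and 12.73 in PSC discs and 12.53, 12.50 and 12.58 in control discs. Rpn12, a lid subunit, read 12.71, 12.76 and 12.68 in PSC discs and 12.64, 12.55 and 12.60 in control discs. The groups did not overlap for these genes either. The others of the 14 were Prosalpha5, Prosalpha7, Prosbeta5, Prosbeta7, Rpn1, Rpn2, Rpn5, Rpn7 and Rpn8. By part of the complex, the median change was 0.082 for 6 alpha, 0.064 for 6 beta, 0.0996 for 4 ATPase and 0.091 for 10 Rpn genes.

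**Figure D1:**
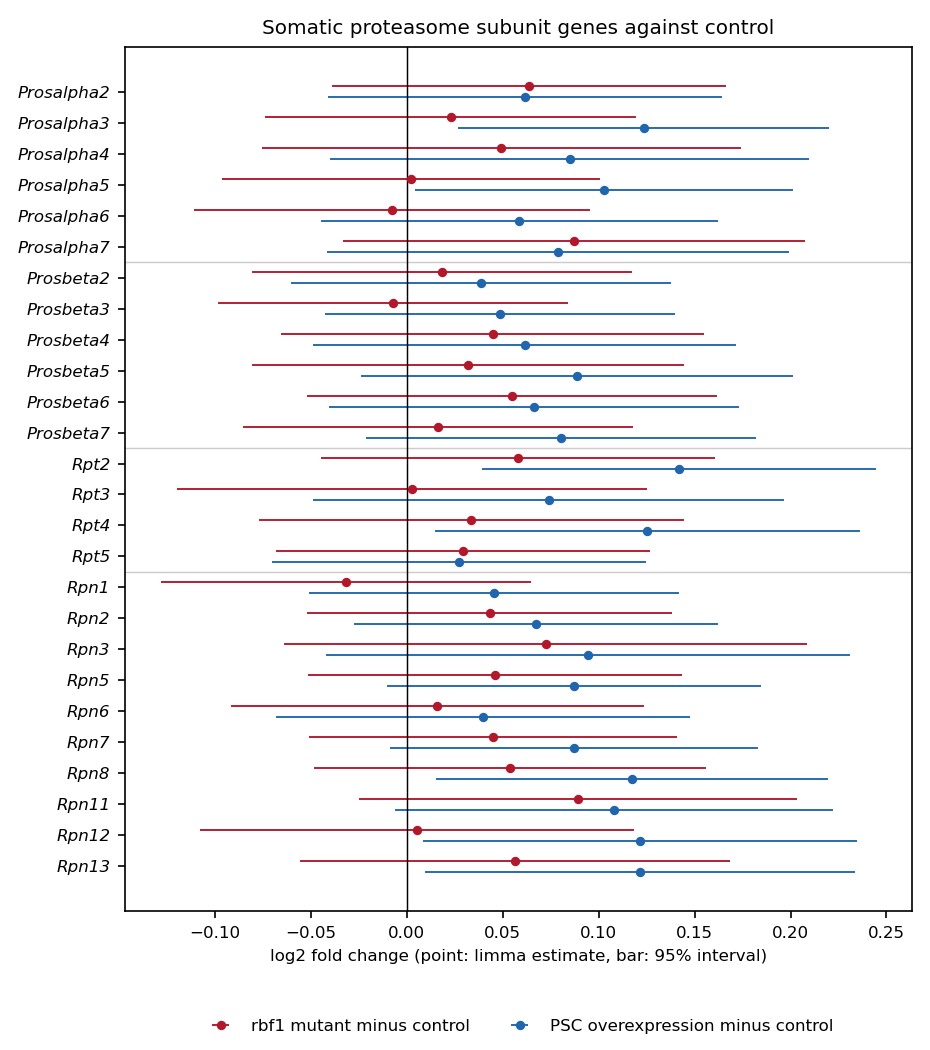
Changes of the 26 somatic subunit genes against control, as log2 fold change on the x axis with 1 gene per row, for rbf1 mutant discs (red, upper point of each row) and PSC discs (blue, lower point). Points are limma estimates and bars their 95% intervals; all 26 blue points lie above 0, between 0.027 and 0.14, and red points lie between -0.032 and 0.089.

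Set against their own mean over the 9 arrays, the somatic genes shifted by array as well as by group. On rbf1 arrays 1, 2 and 3, 18, 12 and 5 of the 26 genes lay above their own mean. On PSC arrays 1, 2 and 3 the numbers were 22, 25 and 26. On control arrays 1, 2 and 3 they were 17, 0 and 2. Control 1 thus stood apart from the other control arrays, with a median deviation of 0.012, against -0.071 in control 2 and -0.056 in control 3. Across all genes tested, between 42.9% (rbf1 3) and 55.5% (control 1) lay above their own mean on each array.

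The glue genes were brightest on control 2 and control 3, where the somatic subunits were lowest. PSC 3 had a glue mean of 12.24 and 26 of 26 subunits above their mean. With the glue mean as a covariate, the median somatic change against control was 0.079 in PSC discs and 0.024 in rbf1 mutant discs. Between rbf1 mutant and PSC discs it was -0.058 with this covariate. What part glue tissue has in these shifts was not tested. Without control 1 the median somatic change in PSC discs against control was 0.11, and with control 2 or control 3 left out it was 0.067 and 0.070. In bulk RNA of this kind, a different mixture of cells and a different amount of RNA per cell cannot be told apart.

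**Figure D2:**
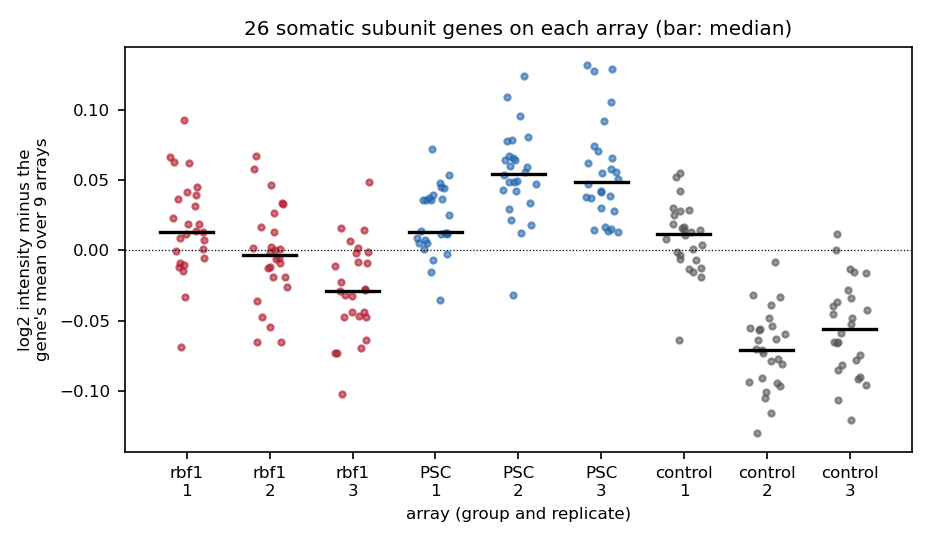
Deviation of each of the 26 somatic subunit genes from its own mean over 9 arrays (y axis, log2 intensity), by array (x axis, rbf1, PSC and control, replicates 1 to 3). Each point is a gene and each bar the median of an array; all 26 points of PSC 3 lie above 0 and all 26 of control 2 below it.

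The altered genotypes were also compared with each other, which tests whether their effects differ. Of the 40 members 1 was called by limma, the testis-type gene Rpt3R, where 10.6% of all genes were called, 3.66% as lower. No somatic subunit passed by limma, where 7.55% of the 781 bright genes did. Of the somatic subunits, 3 had an unadjusted p under 0.05 (23.1% of all genes), and the lowest adjusted p among them was 0.198. The median somatic change was -0.049, and 23 of 26 stood below 0, while the median of all genes was -0.011 and 46.6% of them stood above 0. With arrays centred on their medians the somatic median was -0.11, and that of all genes -0.072. For 12 somatic genes, namely Prosalpha3, Prosalpha5, Prosalpha6, Prosbeta3, Prosbeta7, Rpn1, Rpn7, Rpn8, Rpn12, Rpt2, Rpt3 and Rpt4, all rbf1 values lay below all PSC values, a pattern seen in 14.3% of all genes. The PSC arrays serve in both this comparison and the one against control, so these counts are not separate evidence.

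Most of the 14 testis-type genes stood at the dim end of the arrays in all 3 groups. Rpt3R lay near the median gene, at the 49.36th percentile of mean level, and read 8.27 to 8.35 on PSC arrays. All 14 had a mean level below that of the median gene, 8.15, and 10 lay within 1 unit of the most common low value, 4.05, or below it. These 10 were Prosalpha3T, Prosalpha4T1, Prosalpha6T, Prosbeta2R2, Prosbeta4R1, Prosbeta4R2, Prosbeta5R1, Prosbeta5R2, Rpn12R and Rpt4R. Of the 18 adult testis markers on the same arrays 17 lay below the median gene, mia being the exception, and their mean was 4.40 to 4.46 on rbf1 arrays, 4.32 to 4.37 on PSC arrays and 4.36 to 4.38 on control arrays. In rbf1 mutant against control discs limma called 4 of these markers, topi (0.76, adjusted p = 0.0129) and tomb (0.51, adjusted p = 0.00194) higher and Mst77F (-0.25, adjusted p = 0.0446) and soti (-0.29, adjusted p = 0.0427) lower. Of the 18, topi and tomb were also called higher in rbf1 mutant than in PSC discs, and 0 were called in PSC against control discs. Among all genes limma called 10.2% in rbf1 against control, 10.6% in rbf1 against PSC and 3.8% in PSC against control. The files give no detection call, so whether any of these dim genes was expressed was not tested, and changes near the floor are compressed.

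The dim paralogues had no change that passed in either genotype against control. The median testis-type change was -0.042 in rbf1 mutant discs, with 4 of 14 above 0, and -0.0050 in PSC discs, with 7 of 14 above 0. Of all genes, 48.6% stood above 0 in rbf1 mutant discs and 53.1% in PSC discs. Prosbeta5R1, a paralogue of a protease subunit, read 3.75, 3.74 and 3.95 in rbf1 mutant discs and 3.65, 3.77 and 3.55 in control discs (0.16, SE 0.075, limma adjusted p = 0.261). Prosalpha6T, an alpha paralogue, read 4.41, 4.57 and 4.38 in rbf1 mutant discs and 4.60, 4.64 and 4.55 in control discs. Rpt4R, an ATPase paralogue, read 4.86, 4.64 and 4.83 in rbf1 mutant discs and 4.74, 5.09 and 4.78 in control discs, a change of -0.093. All 3 overlapped their control values.

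In PSC discs the estimates for the paralogues had both signs, and none passed. Prosbeta4R2 read 3.68, 3.71 and 3.72 in PSC discs and 3.52, 3.68 and 3.44 in control discs, a change of 0.15 (SE 0.073, limma adjusted p = 0.364). Prosalpha3T read 3.85, 3.87 and 3.596 in PSC discs and 3.86, 3.86 and 4.01 in control discs, and Prosbeta2R2 read 3.75, 4.21 and 4.10 in PSC discs and 3.89, 3.75 and 4.03 in control discs. PSC values overlapped control values in all 3 genes, for Prosbeta4R2 only by control 2, which lay just above PSC 1. The somatic partners of these genes stood at 0.061 (Prosbeta4), 0.12 (Prosalpha3) and 0.039 (Prosbeta2). Of the 3 paralogues only Prosalpha3T did not share the sign of its partner. It is a dim gene, and its change was -0.14, or -0.054 without PSC 3. Of all 14 paralogues, 7 stood above 0 in PSC discs, against 53.1% of all genes. Most of them lay near the floor, so their signs are not set against those of the somatic subunits.

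**Figure D3:**
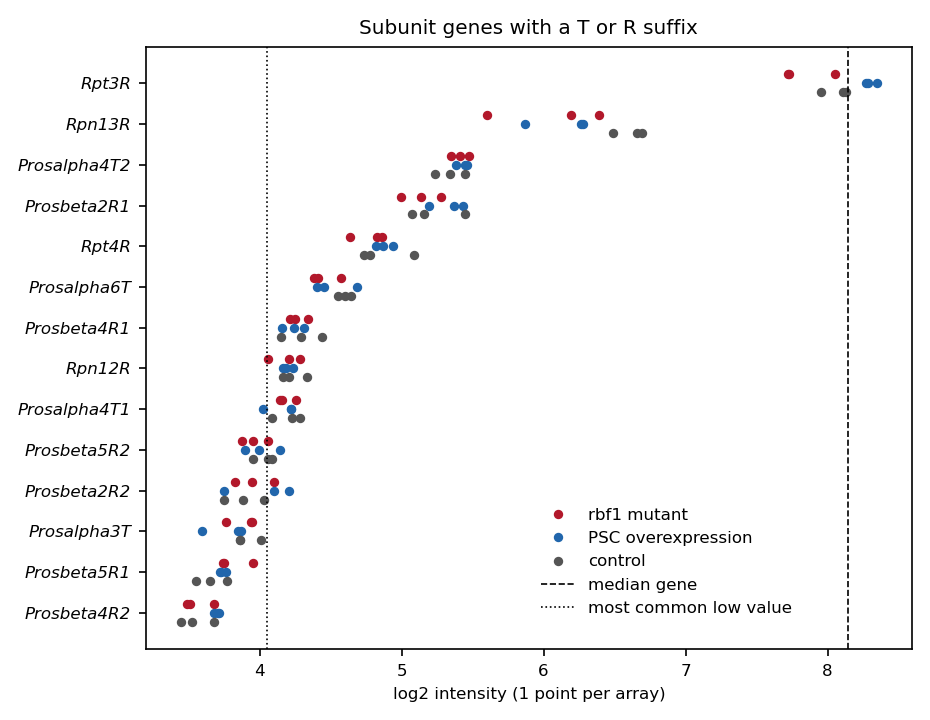
Log2 intensity (x axis) of the 14 subunit genes with a T or R suffix, 1 gene per row and 1 point per array, for rbf1 mutant (red, top of each row), PSC (blue, middle) and control discs (grey, bottom). The dashed line is the median gene at 8.15 and the dotted line the most common low value at 4.05; all genes but Rpt3R and Rpn13R read below 5.5 on every array.

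Rpt3R and Rpn13R stood clear of the floor. Rpt3R (probe set 1623904_a_at), a paralogue of the base ATPase gene Rpt3, read 8.05, 7.73 and 7.72 in rbf1 mutant discs, 8.35, 8.27 and 8.28 in PSC discs, and 8.13, 7.95 and 8.11 in control discs. Every PSC value lay above every value of the other groups, and rbf1 1 lay among the control values. PSC values entirely above control were seen in 11.3% of all genes, and rbf1 values entirely below PSC in 14.3%. Between the altered genotypes the change of Rpt3R was -0.47 (SE 0.094, limma adjusted p = 0.0149), or 0.723-fold in rbf1 mutant relative to PSC discs. Against control it was -0.23 in rbf1 mutant discs (SE 0.094, adjusted p = 0.178) and 0.24 in PSC discs (SE 0.094, adjusted p = 0.255), and neither passed. The call between genotypes was lost without PSC 1 (adjusted p = 0.0587), rbf1 2 (adjusted p = 0.0591) or rbf1 3 (adjusted p = 0.0557), with changes of -0.44, -0.42 and -0.41. Without rbf1 1 the fall against control passed, at -0.34 (adjusted p = 0.0256). The exact two-sided permutation test of rbf1 against PSC arrays gave p = 0.1, the smallest that 3 against 3 allow. Its somatic partner Rpt3 stood at -0.071 in the same comparison.

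Rpn13R (probe set 1627401_at), a paralogue of the ubiquitin receptor gene Rpn13, had the largest difference of any member against control in either genotype. It read 6.19, 6.39 and 5.60 in rbf1 mutant discs, 6.28, 5.87 and 6.26 in PSC discs, and 6.66, 6.49 and 6.69 in control discs. All values of both altered groups lay below all control values, as in 13.2% of all genes for rbf1 and 10.4% for PSC discs. The changes were -0.55 in rbf1 mutant discs (SE 0.197, 95% interval -1.002 to -0.099) and -0.48 in PSC discs (SE 0.197, 95% interval -0.93 to -0.024), with limma adjusted p of 0.130 and 0.276, so neither passed. Without rbf1 3 the change in rbf1 mutant discs was -0.32, and without rbf1 2 it was -0.72. The replicate spread of this gene, a pooled SD of 0.28, was the widest of the 40. Both comparisons use the same control arrays. Rpn13 itself stood at 0.056 in rbf1 mutant and 0.12 in PSC discs.

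The probe set read by Prosalpha1 and Prosalpha1R together (1633010_s_at) was left out of the fit over genes, and was tested in a fit over all 18769 probe sets other than controls. It read 13.56, 13.60 and 13.54 in rbf1 mutant discs, 13.83, 13.85 and 13.84 in PSC discs, and 13.67, 13.59 and 13.68 in control discs. PSC arrays lay above all others, and rbf1 2 lay just above control 2. Among the genes tested, 11.3% had PSC values entirely above control and 14.3% had rbf1 values entirely below PSC. Between the altered genotypes the change of this probe set was -0.28 (SE 0.046, limma adjusted p = 0.00659), which held without each array in turn. Against control it was 0.19 in PSC discs (SE 0.046, adjusted p = 0.0673) and -0.081 in rbf1 mutant discs (SE 0.046, adjusted p = 0.376). The change in PSC discs passed in 2 of 10 alternatives. These were arrays centred on their medians (0.23, limma adjusted p = 0.0449) and a prior variance that follows the mean level (limma adjusted p = 0.00492). How the 2 genes divide this signal was not tested.

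Genes that act with the proteasome were read from lists of assembly and associated factors, the Cnc axis, the ATPase p97 with ubiquitin shuttles, ubiquitin with its enzymes, and the related COP9 signalosome. In rbf1 mutant discs 2 of 9 assembly and associated genes passed against control, 1 in each direction, and 1 of 8 ubiquitin genes rose. These 3 of 38 genes compare with 10.2% of all genes. None of 5 Cnc axis, 7 p97 and shuttle or 9 COP9 genes passed. In PSC discs 0 of these 38 genes passed by limma against control, and 4 had an unadjusted p under 0.05, where 3.8% and 16.5% of all genes did. The medians of the lists in PSC discs ran from 0.017 for COP9 to 0.12 for assembly and associated genes. All 9 assembly and associated genes and all 7 p97 and shuttle genes stood above 0, against 53.1% of all genes. These genes were read on the same arrays, so such counts are not separate observations.

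Uch-L5, a deubiquitinase whose mammalian relative binds the regulatory particle through Rpn13, passed in rbf1 mutant discs under all 15 alternatives. It read 12.04, 12.07 and 11.998 in rbf1 mutant discs, 11.91, 11.94 and 11.90 in PSC discs, and 11.78, 11.80 and 11.81 in control discs. The 3 groups did not overlap. Of all genes, 15.7% had rbf1 values and 11.3% had PSC values entirely above control, and 16.2% had rbf1 values entirely above PSC. Uch-L5 rose by 0.24 in rbf1 mutant discs (SE 0.040, limma adjusted p = 0.00664), and stood at 0.12 in PSC discs (adjusted p = 0.179). The difference between the genotypes did not pass (0.12, adjusted p = 0.106). It passed in 2 of 15 alternatives. These were a prior variance that follows the mean level (limma adjusted p = 0.0345) and genes above the median level (limma adjusted p = 0.0417).

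CG8858, entered in the list of associated genes, fell by 0.42 in rbf1 mutant discs (SE 0.082, limma adjusted p = 0.0140). It read 10.07, 10.00 and 10.32 in rbf1 mutant discs, 10.63, 10.66 and 10.73 in PSC discs, and 10.61, 10.53 and 10.50 in control discs. All rbf1 values lay below all others. Of all genes, 13.2% had rbf1 values entirely below control and 14.3% entirely below PSC. The call against control was lost without control 1 (adjusted p = 0.0537), rbf1 1 (adjusted p = 0.0557) or rbf1 2 (adjusted p = 0.0503). Against PSC discs the change was -0.54 (SE 0.082, adjusted p = 0.00402).

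The third gene called was ben, which encodes a ubiquitin-conjugating enzyme. It rose by 0.18 in rbf1 mutant discs (SE 0.044, limma adjusted p = 0.0369), a call lost in 11 of 15 alternatives, with adjusted p up to 0.120. Genes of proteasome supply did not pass. cnc, whose vertebrate relative Nrf1 activates proteasome genes, read 12.78, 12.78 and 12.78 in rbf1 mutant discs, 12.67, 12.62 and 12.75 in PSC discs, and 12.64, 12.66 and 12.59 in control discs, with changes of 0.15 in rbf1 mutant discs (limma adjusted p = 0.0925) and 0.048 in PSC discs. Pomp, the chaperone of core assembly, stood at 0.14 in both genotypes (limma adjusted p = 0.358 for rbf1 and 0.468 for PSC). Both changes use the same control arrays, which read 12.17, 11.81 and 12.03. Pomp read 12.18, 12.12 and 12.14 in rbf1 mutant discs and 12.13, 12.15 and 12.15 in PSC discs. Control 1 lay inside the rbf1 range and above every PSC value, and control 2 was the lowest array. The polyubiquitin gene Ubi-p5E stood at -0.17 in rbf1 mutant and -0.14 in PSC discs without passing. Ubi-p63E of the same list stood at -0.051 and 0.061, so the 2 genes did not share a sign in PSC discs.

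**Figure D4:**
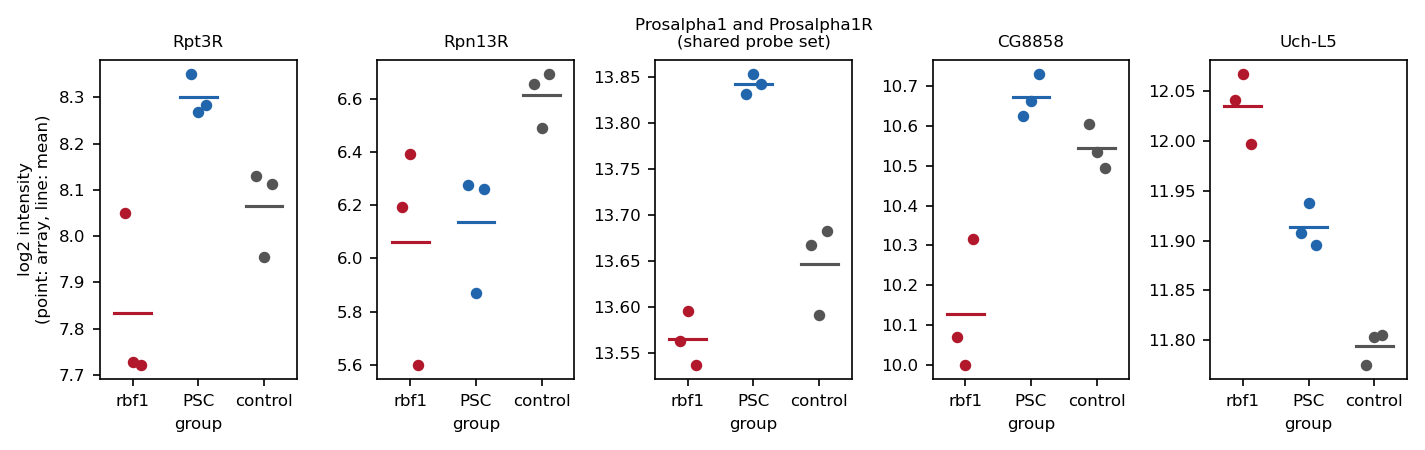
Log2 intensity (y axis, a scale of its own in each panel) of Rpt3R, Rpn13R, the probe set shared by Prosalpha1 and Prosalpha1R, CG8858 and Uch-L5 in rbf1, PSC and control discs. Points are arrays and lines group means (n = 3 each); Rpt3R and the shared probe set are highest on PSC arrays, Rpn13R on control arrays and Uch-L5 on rbf1 arrays.

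The members were spread over the genome. By the RefSeq gene table, the 26 somatic genes lie on arms 2L (4 genes), 2R (7), 3L (4), 3R (8) and X (3), and the 14 testis-type genes on 2L (4), 2R (2), 3L (2), 3R (4) and X (2). Median somatic changes by arm ran from 0.012 (3L) to 0.058 (2L) in rbf1 mutant discs and from 0.056 (3L) to 0.10 (2R) in PSC discs before centring. All 14 testis-type genes have a measured somatic partner, and against control the largest gap in change between a paralogue and its partner was that of Rpn13R and Rpn13 in both genotypes.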

How the data were processed

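The deposited table holds log2 intensities per probe set, which the authors made with RMA per the submitters' processing notes (version not given in the sources used here). RMA corrects background, normalizes between arrays and summarises probes. Array medians over genes lay between 8.11 and 8.21, so no scaling was added. Of 18952 probe sets, 183 controls were left out; 13647 had 1 gene, 402 several and 4720 none. For genes with several probe sets the brightest over all 9 arrays was kept (11983 genes). Symbols come from a RefSeq gene table (Release 6 plus ISO1 MT; 11894 identifiers matched).

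A group-means model over all 9 arrays was fitted with limma 3.58.1 in R 4.3.3 (6 residual degrees of freedom, eBayes defaults), and p-values were adjusted by Benjamini-Hochberg across the 11983 genes (called at 0.05). The steps were tested on simulated data. Intervals are 95% per gene, unadjusted. Figures used matplotlib 3.10.9 in Python 3.11.15. The number of arrays limits precision, and the labels call replicates biological without naming separate cultures.

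The members, lists and tests were chosen with earlier results of these data known. Values on every array of the groups compared are given for members called in any comparison and for those with the largest changes against control. The latter were 5 somatic and 5 testis-type members in each genotype. Values are also given for called genes of the pathway lists other than ben. Pomp, cnc, Ubi-p5E and Ubi-p63E were added after their values were seen.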

Additional observations from a re-analysis of the deposited data

Results flagged for a closer look

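Rpt3R was flagged because its change between the altered genotypes passed a test of that difference, at -0.47 in rbf1 mutant relative to PSC discs. It passed in 11 of 14 alternatives, with adjusted p between 0.0031 and 0.0591.

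CG8858 was flagged on the same ground, at -0.54 in rbf1 mutant relative to PSC discs, and passed in 15 of 15 alternatives.

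The probe set shared by Prosalpha1 and Prosalpha1R was flagged on separate grounds. It lay outside the genes tested. In PSC discs it stood 0.19 higher than in control discs with no overlap between the groups, a pattern seen in 11.3% of all genes. That change did not pass (limma adjusted p = 0.0673), and passed in 2 of 10 alternatives. Between rbf1 mutant and PSC discs the probe set differed by -0.28, which passed in 10 of 10. These alternatives were added after the data were seen.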

How the results depend on the processing

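The count of proteasome genes called in PSC against control was 0 by limma under all alternatives run. In rbf1 against control the count ran from 0 to 1 with each array left out in turn, and in rbf1 against PSC from 0 to 1; this last count was also 0 among genes above the median level, where no testis-type gene is left. Over all genes, leaving out each array gave 787 to 969 calls in rbf1 against control (1226 with all arrays), 250 to 385 in PSC against control (455) and 843 to 986 in rbf1 against PSC (1266), and 275 with only the groups compared in PSC against control. Centring arrays on their medians lowered the share of higher calls to 48.1% in rbf1 against control (61.7% without) and to 43.7% in rbf1 against PSC (65.4% without). Centring also gave somatic medians of -0.0035 in rbf1 against control, a change of sign, and -0.11 in rbf1 against PSC (all genes -0.046 and -0.072, since centring shifts all genes alike), and testis-type medians of -0.084 and -0.11. With each array left out, the testis-type median ran from -0.081 to 0.0051 in rbf1 against control and from -0.061 to 0.012 in rbf1 against PSC, while the somatic median ran from 0.067 to 0.11 in PSC against control and from 0.019 to 0.053 in rbf1 against control. With the replicate number as a block, proteasome counts were 0, 0 and 1; ben lost its call (0.18, adjusted p = 0.0536). Same-numbered arrays correlated at -0.44 to 0.59 in their deviations, and others at -0.62 to 0.62, so the numbers are not taken as pairs; not every array correlated best with its own number. Signal over background was not measured and no detection call was available, which limits what can be read from the dim testis-type genes. The causes of these shifts were not tested.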
